A study of Ovis aries with 3 samples.

Results

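The miRNAs of the duodenum (DU) were compared with those of the colon (CO) in Small tailed Han sheep. Each segment was represented by 1 small RNA library made from the pooled RNA of 3 purebred ewes aged 11 months. The same ewes gave both libraries, were untreated, and were kept on 1 farm, and the colon sample came from the proximal colon. The tissue was labelled as mucosal epithelium. A further library of the series, from the cecum (CE) of the same ewes, is given only as a reference level. The deposited count tables listed 822 mature miRNA sequences, of which 146 were known sheep miRNAs (names beginning with oar-) and 676 were predicted ones (novel_mir_ followed by a number). All rows with at least 10 reads in both the DU and the CO library were compared. These were 277 rows, 94 known and 183 predicted.

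A miRNA is cut from a hairpin precursor, and either arm of the hairpin (5p or 3p) can give a mature miRNA. Bases 2 to 8 of the mature miRNA, the seed, pair with target mRNAs, so miRNAs with the same seed form a family that can act on overlapping targets. miRNAs whose hairpins lie side by side in the genome form a cluster and are often cut from 1 common transcript. In the gut, the miR-200 and miR-192, miR-194, and miR-215 groups are known from epithelial cells, miR-143 and miR-145 from smooth muscle and other mesenchymal cells, and the miR-10 and miR-196 families from the HOX gene clusters, which mark position along the body axis.

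The sequences below are those on which the comparison turned, written 5′ to 3′ as deposited, with the seed in capitals. The first set holds rows that were at least 2-fold apart between the DU and CO libraries, and 1 close relative of novel_mir_153. The rows of miR-10a and miR-10b were listed with starts 1 base apart, so that their listed seeds are shifted against each other.
oar-miR-10a: tACCCTGTagatccgaatttg
oar-miR-10b: aCCCTGTAgaaccgaatttgtg
novel_mir_153: tAGGTAGTtttatgttgttggg
novel_mir_92: tAGGTAGTttcatgttgttggg
novel_mir_24: tGGAGCCGgagctggttagcgg
novel_mir_174: aTGACCTAtgaattgacagaca
novel_mir_377: tCGAGCCTgacagatcacacac

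The next set shows relatives with 1 seed that moved by different amounts, namely a pair of let-7 miRNAs and the length variants of miR-194 and miR-200b, which were counted in separate rows.
oar-let-7a: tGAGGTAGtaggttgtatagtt
oar-let-7i: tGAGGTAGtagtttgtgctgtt
oar-miR-194: tGTAACAGcaactccatgtgga
novel_mir_175: tGTAACAGcaactccatgtggac
oar-miR-200b: tAATACTGcctggtaatgatg
novel_mir_179: tAATACTGcctggtaatgatgac

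The last pair holds both arms of the miR-485 hairpin, which differed most from each other.
oar-miR-485-5p: aGAGGCTGgccgtgatgaattcg
oar-miR-485-3p: gTCATACAcggctctcctctct

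In total, 14462675 reads were listed for DU and 13769740 for CO. Known miRNAs held 75.9% of the reads in the DU library and 90.4% in the CO library, and the 277 rows held 93.0% and 99.8%. Levels are given as reads per 1000000 reads of known miRNAs (RPM), over 10983452 reads in DU and 12449011 in CO, where 3 reads correspond to 0.273 and 0.241 RPM. Differences are log2 ratios of the CO to the DU level, with exact binomial 95% intervals in brackets where they are given, and positive values mean a higher level in the CO library. With 1 library per segment, the spread between animals was not measured and no p-value was computed. The intervals cover counting error only. In pooled tissue, fewer cells of a type and less RNA per cell cannot be told apart.

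The most abundant miRNA was not an epithelial one, although the tissue was labelled as mucosal epithelium. oar-miR-143, a smooth muscle and mesenchymal miRNA, had 419404 RPM in the DU library, 531315 RPM in the CO library, and 548486 RPM in the CE library, so that it held 41.9% and 53.1% of the known miRNA reads of the DU and CO libraries. The log2 ratio of oar-miR-143 was 0.34. Because this single miRNA took up so much of each library, every ratio depended on whether it was counted in the scaling. Without oar-miR-143 in the scaling, all log2 ratios were higher by 0.31, and with the reads of all rows, edgeR TMM factors, or DESeq2 size factors they were higher by 0.25, 0.26, and 0.29.

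Of the 94 known miRNAs, 52 (55.3%) lay within 0.5 of equality on the log2 scale. The 94 known miRNAs had a median log2 ratio of 0.02 (quartiles -0.56 and 0.35), which became 0.28 to 0.33 under the other scalings, while the 183 predicted rows had a median of -0.39 and all 277 rows a median of -0.29. At least 2-fold higher in the CO library were 16 of 277 rows (5.78%), and at least 2-fold higher in the DU library were 38 (13.7%). Among the known miRNAs, 6 of 94 (6.38%) were at least 2-fold higher in CO and 2 (2.13%) in DU. Among the predicted rows these were 10 of 183 (5.46%) and 36 (19.7%). Without oar-miR-143 in the scaling, 10 known miRNAs were at least 2-fold higher in CO and 0 in DU.

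**Figure D1:**
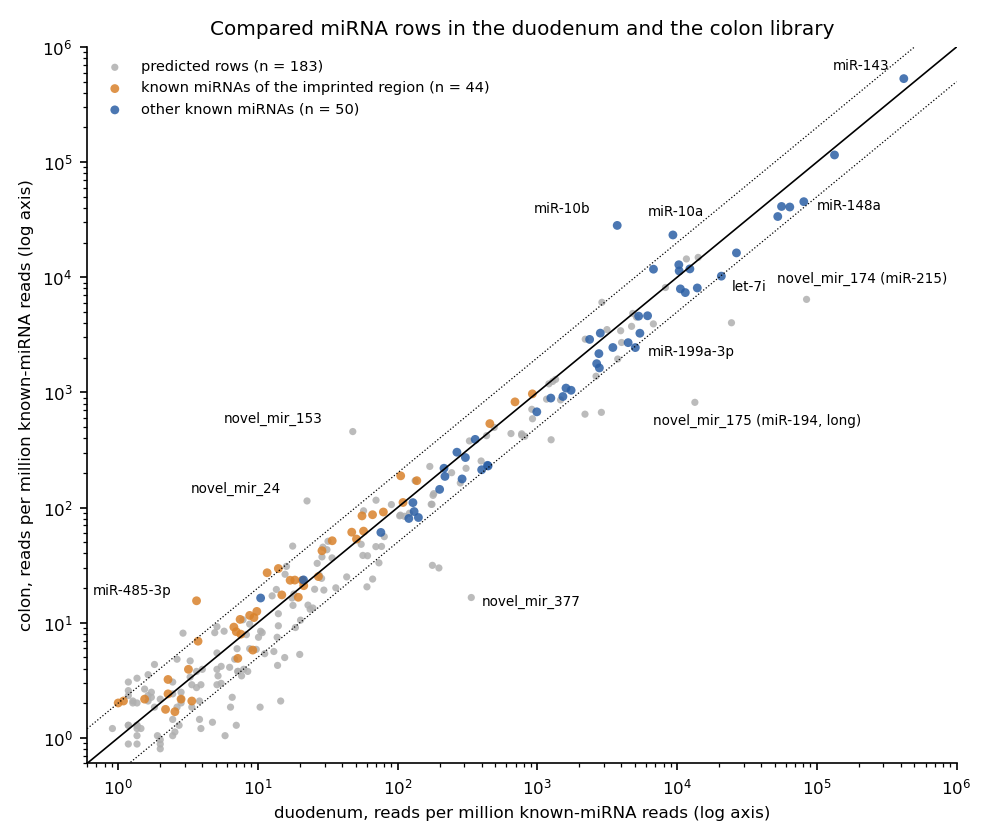
Level of each of the 277 miRNA rows in the duodenum library (x axis) and the colon library (y axis), in RPM on log axes, with the line of equality (solid) and of 2-fold difference (dotted). Of the 94 known miRNAs, 6 lie at or above the upper 2-fold line, among them miR-10a and miR-10b, and 2, let-7i and miR-199a-3p, below the lower one. Of the 183 predicted rows, 10 lie above and 36 below.

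Families of known miRNAs were then compared by their summed reads. Of 25 families with at least 1 known member, 8 had a log2 ratio above 0 and 17 below 0. The 55 rows with at least 10000 reads in both libraries had a median log2 ratio of -0.41, so a value near this was usual for an abundant row. Under all 5 scalings, 8 families stayed above 0 and 15 below 0, and the other 2, miR-21 and miR-374, changed sign. By its known members, the miR-10 family was the only one whose sum passed 2-fold. With its predicted row added, the miR-194 family also passed it, at -1.62 on the duodenum side. The family of miR-192 and miR-215 had no known member and so was not among the 25.

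**Figure D2:**
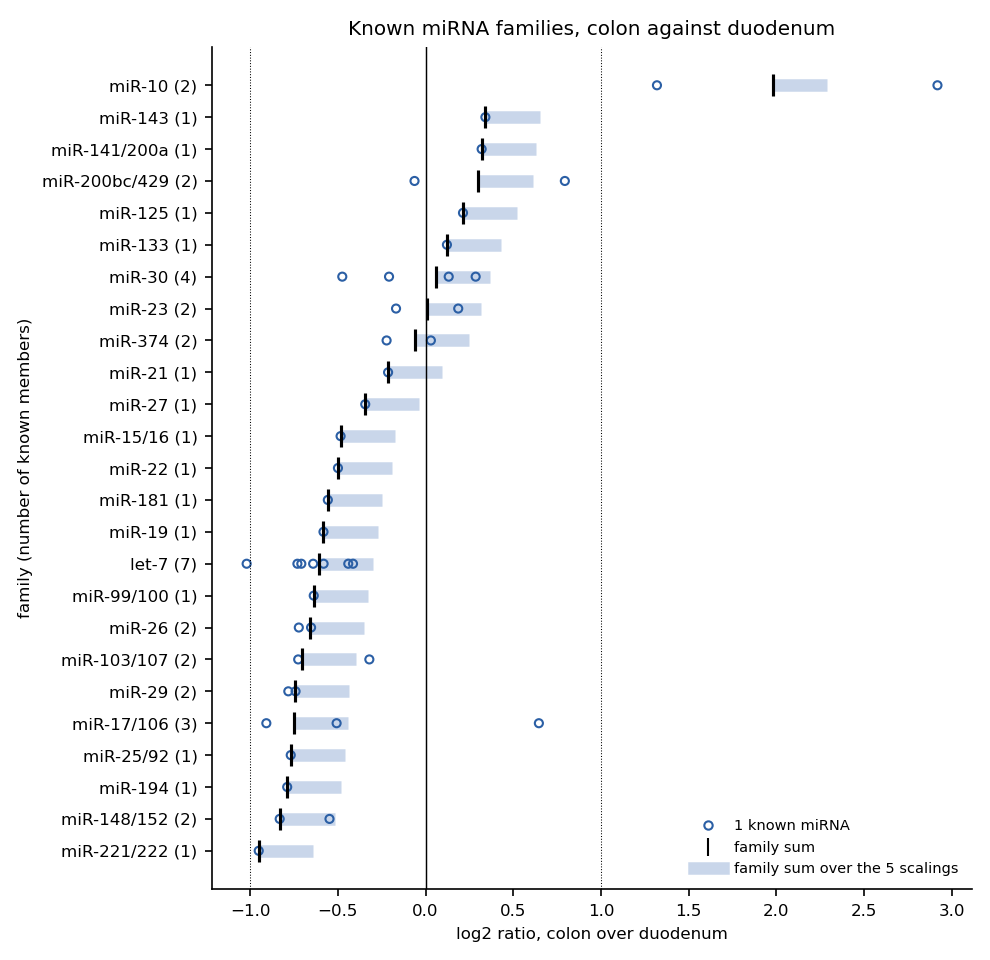
Log2 ratio of colon over duodenum (x axis) for the known miRNAs of each of 25 families (y axis, with the number of known members). Circles are single miRNAs, the black tick is the family's summed reads, and the bar shows how far the sum moved over the 5 scalings. The miR-10 family sits alone beyond 1, and all 7 let-7 miRNAs lie below 0.

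The miR-10 family was the most different among the known miRNAs. oar-miR-10b had 3730 RPM in the DU library and 28211 RPM in the CO library, with 33399 RPM in the CE library, and a log2 ratio of 2.92 (2.90 to 2.93). oar-miR-10a had 9340 RPM in DU, 23312 RPM in CO, and 34179 RPM in CE, with a log2 ratio of 1.32 (1.31 to 1.33). Both were low in the duodenum and high in both large intestine libraries, and the family sum went from 1.31% of the known miRNA reads in DU to 5.15% in CO, or 3.94-fold. Within the family the order was inverted. oar-miR-10b made up 28.5% of the reads of both miRNAs in the DU library but 54.8% in the CO library, a comparison that does not depend on the scaling. In the RefSeq annotation, the gene of miR-10a lies within HOXB3 and that of miR-10b within HOXD4.

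Other rows related to HOX miRNAs lay on the same side. novel_mir_153, which differs from the miR-196a sequence of novel_mir_92 at 1 position outside the seed, had 47.8 RPM in the DU library, 457 RPM in the CO library, and 375 RPM in the CE library. Its log2 ratio of 3.26 (3.13 to 3.39) was the highest of all 277 rows. novel_mir_92 had 0 reads in DU, 1171 in CE, and 344 in CO, and so was not among the rows compared. novel_mir_91, whose sequence is nested with that of miR-615-3p, a miRNA of the HOXC cluster, had 17.8 RPM in DU and 46.3 RPM in CO, with a log2 ratio of 1.38 (1.15 to 1.62).

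The let-7 family, a group of miRNAs that increase as cells differentiate, was lower in the CO library in every known member. It held 17.4% of the known miRNA reads in the DU library and 11.4% in the CO library, with a log2 ratio of -0.61 that ranged up to -0.30 over the scalings. The 7 members spread from -0.41 for oar-let-7b to -1.02 for oar-let-7i. oar-let-7a had 55932 RPM in DU and 41212 RPM in CO, oar-let-7f 52559 and 33707 RPM, and oar-let-7g 26613 and 16287 RPM. oar-let-7i had 20745 RPM in DU and 10229 RPM in CO and was 1 of the 2 known miRNAs at least 2-fold higher in DU. The members thus did not move as 1 block, since let-7i made up 27.1% of the reads of let-7i and let-7a in DU and 19.9% in CO. With 4 predicted rows of the same seed, all 11 rows lay below 0. The predicted rows ranged up to -0.03 for novel_mir_194, nested with let-7e, a value that turned positive under the other scalings.

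Several abundant families with broad expression were lower in the CO library as well, as was the median of the abundant rows given above (-0.41). oar-miR-148a, a miRNA abundant in digestive epithelium, came after miR-143 and miR-21 among the known miRNAs of DU, with 80718 RPM, and had 45352 RPM in CO and 26898 RPM in CE. Its log2 ratio was -0.83, and that of oar-miR-152, of the same seed, was -0.55. The miR-26 family held 6.86% of the known miRNA reads in DU and 4.35% in CO, and its members oar-miR-26a and oar-miR-26b had close log2 ratios of -0.65 and -0.72. These miRNAs lie within CTDSP2 and CTDSP1. The miR-29 family, known for its collagen and other matrix targets, had log2 ratios of -0.74 for oar-miR-29a and -0.78 for oar-miR-29b. oar-miR-103 and oar-miR-107, within the pantothenate kinase genes PANK3 and PANK1, had -0.73 and -0.32. All of these kept their sign under the 5 scalings.

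The families linked to cell proliferation lay on the DU side in both of their clusters. This side was usual, since the 46 rows with a smaller count of 1000 to below 10000 reads had a median of -0.47. oar-miR-19b and oar-miR-106b lay close to that median. oar-miR-17-5p and oar-miR-19b, of the miR-17 cluster, had 400 and 120 RPM in DU and 213 and 80.4 RPM in CO, with log2 ratios of -0.91 and -0.58. oar-miR-106b and oar-miR-25, which share the gene MCM7 as host, had 131 and 2780 RPM in DU and 92.4 and 1632 RPM in CO, with log2 ratios of -0.51 and -0.77. Predicted rows identical to miR-20a (-0.77) and miR-92a (-0.78) had close values. oar-miR-106a was the exception, with 115 reads in DU and 204 in CO and a log2 ratio of 0.65 (0.31 to 0.99). Its seed is that of miR-17-5p, but its gene lies apart from both clusters in the annotation. The predicted rows of miR-20b and miR-363, which lie beside miR-106a in other mammals, also stood apart from their relatives. novel_mir_282, the row of miR-20b, had 86 reads in DU and 132 in CO (0.44), and novel_mir_283, the row of miR-363, had 193 and 204 reads (-0.10, positive under the other scalings).

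Further families with 1 known member were lower in the CO library by that member. oar-miR-221, a regulator of KIT and CDKN1B, had 444 RPM in DU and 230 RPM in CO, with a log2 ratio of -0.95. The sum of this family turned to 0.78 when the row of miR-222, with 0 reads in DU and 6655 in CO, was added. oar-miR-181a had -0.56, oar-miR-22-3p -0.50, and oar-miR-16b, of a family that restrains the cell cycle, -0.48. In the last family, the row identical to miR-15b, novel_mir_32, had 663 reads in DU and 255 in CO (-1.56), and that of miR-497, novel_mir_163, had 1137 and 1055 (-0.29, positive only without oar-miR-143 in the scaling).

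The miR-200 family, which keeps cells epithelial by acting on ZEB1 and ZEB2, was close to equal or higher in the CO library. oar-miR-200b had 6780 RPM in DU, 11758 RPM in CO, and 5618 RPM in CE, with a log2 ratio of 0.79. In the paper's qRT-PCR, most of the miRNAs tested followed the trends of the sequencing. oar-miR-200b was an exception there, being relatively high in the duodenum. Its neighbour oar-miR-200a had 10294 RPM in DU and 12849 RPM in CO (0.32), and oar-miR-200c 12353 and 11826 RPM (-0.06, a sign that turned under the other scalings). A predicted row nested with miR-141, the neighbour of miR-200c in other mammals, had 133 RPM in DU and 171 RPM in CO (0.36). The length variants of miR-200b did not move alike. The longer row, novel_mir_179, had 14166 RPM in DU and 14881 RPM in CO and a log2 ratio of 0.07, and it made up 67.6% of the reads of both rows in DU and 55.9% in CO. With both rows added, the log2 ratio of miR-200b was 0.35.

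The epithelial miRNAs miR-194 and miR-215 lay far to the other side. oar-miR-194, within EHD1 in the annotation, had 13959 RPM in DU, 8079 RPM in CO, and 5504 RPM in CE, with a log2 ratio of -0.79. The row that is 1 base longer, novel_mir_175, had 13411 RPM in DU, 820 RPM in CO, and 97.5 RPM in CE, with a log2 ratio of -4.03. It made up 49.0% of the reads of both rows in DU, 9.21% in CO, and 1.74% in CE, and the sum of both gave a log2 ratio of -1.62. novel_mir_174, identical in sequence to miR-215, had 84467 RPM in DU, 6428 RPM in CO, and 555 RPM in CE, with a log2 ratio of -3.72 (-3.73 to -3.71). The row nested with miR-192, its close relative, had 967314 reads in DU, 490567 in CE, and 0 in CO, and therefore was not among the rows compared. The rows of miR-215 and miR-192 share a run of 18 bases and differ at 2 of the positions compared. How reads were divided between such rows was not given in the sources used here.

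Other families had sums close to 0 or members of different sign. oar-miR-21 was second in both libraries, with 133877 RPM in DU and 115453 RPM in CO, and its log2 ratio of -0.21 became 0.04 to 0.10 under the other scalings. The miR-30 family had members on both sides, from -0.47 for oar-miR-30b to 0.29 for oar-miR-30c, and a sum of 0.06 that became -0.03 when the predicted rows of miR-30e and miR-30f were added. In the miR-23 and miR-27 families, oar-miR-23a had -0.17, oar-miR-23b 0.19, and oar-miR-27a -0.34, values of which those of miR-23a turned positive under the other scalings. A row identical to miR-27b, novel_mir_320, had 11667 RPM in DU and 14430 RPM in CO (0.31), so that the family sum was -0.34 without it and 0.20 with it. oar-miR-99a (-0.64) and the rows identical to miR-100 (-0.18, a sign that turned under the other scalings) and miR-99b (0.40) also differed in sign. The miR-125 family lay on the CO side in both rows. oar-miR-125b had 0.21, while novel_mir_195, nested with miR-125a, had 2899 RPM in DU, 6060 RPM in CO, and a log2 ratio of 1.06. The sum of both rows had 0.71.

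Genomic clusters were examined in the RefSeq annotation, where all 146 known rows had a miRNA gene. Genes up to 10 kb apart were taken as neighbours, which gave 9 groups of at least 2 genes. In the 7 groups with only a pair of genes, the members differed by a log2 ratio of 0.09 (oar-let-7c and oar-miR-99a) to 0.61 (oar-miR-30d and oar-miR-30b), with a median of 0.26. For comparison, the median difference over all 1225 pairs of known miRNAs outside the imprinted region was 0.46. In 6 of the 7 groups both members had the same sign. Of the 50 known miRNAs outside the imprinted region, 37 lay below 0, so a shared sign was also common without neighbourhood. Under each of the other scalings oar-miR-23a turned positive while its neighbour oar-miR-27a stayed negative. Shares within these pairs need no scaling. The share of oar-miR-200b in the reads of miR-200b and miR-200a went from 39.7% in DU to 47.8% in CO, and that of oar-miR-17-5p in those of miR-17-5p and miR-19b from 76.9% to 72.6%. Others were closer. oar-let-7a made up 95.5% of the reads of let-7a and let-7d in DU and 95.9% in CO, and oar-miR-25 made up 95.5% of those of miR-25 and miR-106b in DU and 94.6% in CO.

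**Figure D3:**
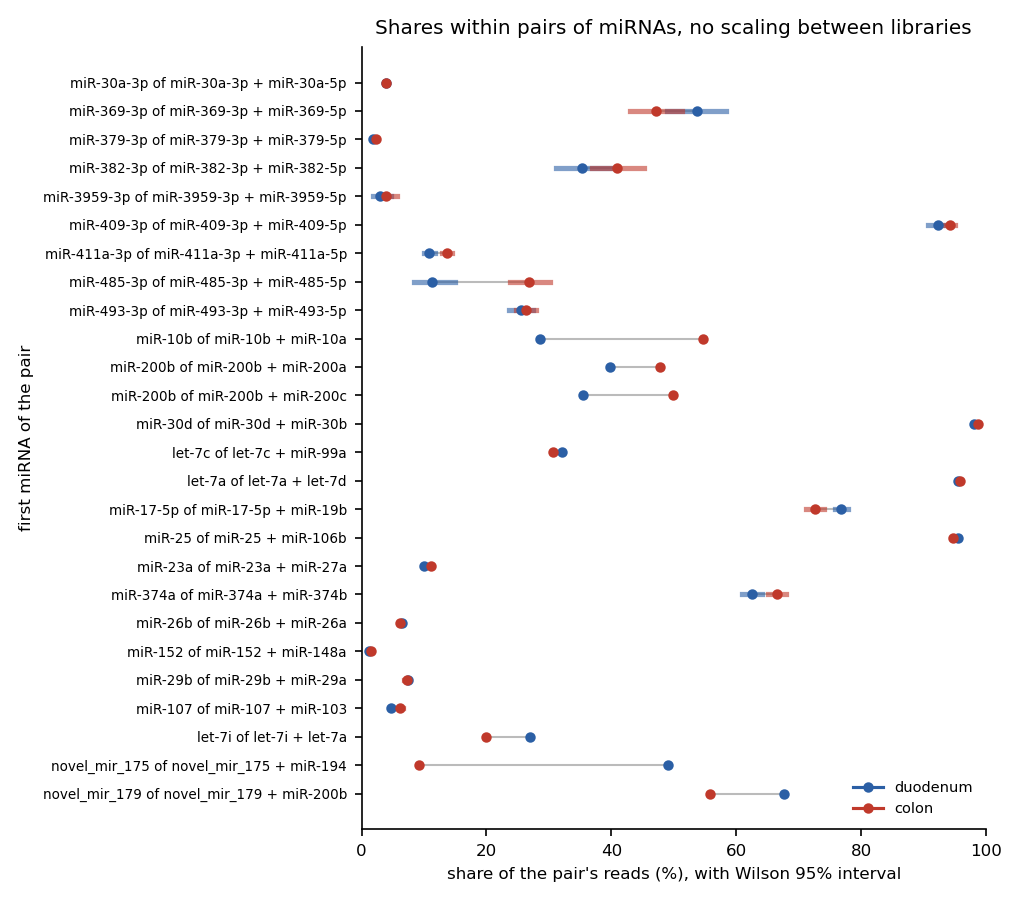
Share of the first miRNA in the reads of each pair (x axis, percent, with Wilson 95% intervals as bars) in the duodenum (blue) and the colon (red), for arms of 1 hairpin, relatives or neighbours, and length variants (y axis). The share of novel_mir_175 went from 49.0% to 9.21%, that of miR-10b from 28.5% to 54.8%, and that of miR-485-3p from 11.2% to 26.9%, while that of the 3p arm of miR-30a was 3.95% and 3.90%.

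The imprinted region between DLK1 and DIO3, whose miRNAs are expressed from the maternal chromosome, was taken as a whole, although the limit of 10 kb divides it into several groups. It held 96 of the 146 known rows, of which 44 had at least 10 reads in both libraries. Its summed level was 3124 RPM in DU, 3692 RPM in CO, and 4156 RPM in CE, with a log2 ratio of 0.24 (0.22 to 0.26). Of the 44 miRNAs, 35 had a log2 ratio above 0, 20 of them with the whole interval above 0. The other 9 lay below 0, 2 of them with the whole interval below in RPM but not under the other scalings. The median was 0.28, against -0.48 over the 50 known miRNAs outside the region, of which 13 lay above 0. Without oar-miR-143 in the scaling, 39 of 44 and 19 of 50 lay above 0, while the difference between both medians, 0.76, does not depend on the scaling.

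The miRNAs of this region were also far less abundant than the others. The smaller of both counts had a median of 141 reads in the region and 26530 reads outside it, so that depth and region cannot be told apart here. Of the 25 miRNAs of the region with at least 100 reads in both libraries, 22 lay above 0, with a median of 0.26. Outside the region, only 3 known miRNAs had fewer than 1000 reads in a library, and these were oar-miR-106a (0.65), oar-miR-362 (0.15), and oar-miR-107 (-0.32).

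Both parts of the region lay on the same side. In the proximal group around RTL1, where miR-127 and its neighbours lie antisense to that gene, the sum had a log2 ratio of 0.29. oar-miR-127, its most abundant member, had 692 RPM in DU and 828 RPM in CO (0.26), oar-miR-432 34.1 and 51.5 RPM (0.60), and oar-miR-433-3p 14.0 and 29.6 RPM (1.08), while oar-miR-136 had 19.5 and 16.6 RPM (-0.23, with an interval of -0.51 to 0.05 and a sign that turned under the other scalings). In the distal group, miR-379 to miR-410 with the genes flanking them, the sum had a log2 ratio of 0.22, and 29 of 37 members lay above 0. oar-miR-379-5p, the most abundant, had 921 RPM in DU and 972 RPM in CO (0.08), and oar-miR-409-3p 105 and 189 RPM (0.84). oar-miR-323a-3p had 11.7 RPM in DU and 27.2 RPM in CO, a log2 ratio of 1.22 (0.92 to 1.53). The lowest values in the group were those of oar-miR-544-5p (-0.69), oar-miR-381-3p (-0.67), oar-miR-154b-5p (-0.60), and oar-miR-655-3p (-0.55). The intervals of oar-miR-381-3p (-1.13 to -0.22) and oar-miR-655-3p (-1.06 to -0.05) stayed below 0 in RPM. Both crossed 0 under each of the other scalings. Near the far end of the region, oar-miR-410-3p had 41 reads in DU and 86 in CO (0.89).

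**Figure D4:**
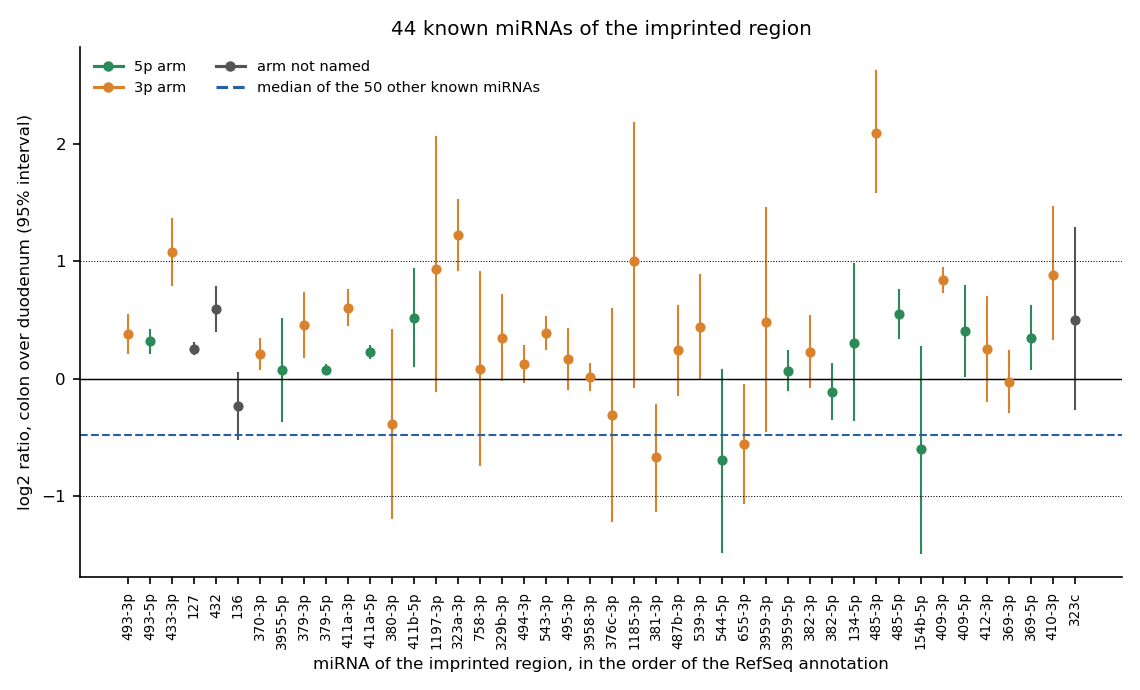
Log2 ratio of colon over duodenum with its exact 95% interval (y axis) for the 44 known miRNAs of the imprinted region, in annotation order (x axis) and coloured by arm. Of these, 35 points lie above 0, 4 lie below the dashed median of the 50 other known miRNAs at -0.48, and the intervals widen where reads are few.

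Arms of the same hairpin were compared next, since their ratio within a library needs no scaling. Both arms of 9 hairpins were among the rows compared. The 95% interval of the difference between their log2 ratios, computed from the counts, lay above 0 for the 3p arm in 4 hairpins, below 0 in 1, and across 0 in 4. The largest difference was that of miR-485. oar-miR-485-3p had 40 reads in DU, 149 in CE, and 193 in CO, and oar-miR-485-5p had 316, 577, and 525 reads. The 3p arm thus made up 11.2% of the reads of the hairpin in DU and 26.9% in CO, a difference of 1.54 on the log2 scale (1.01 to 2.07). The 3p arms of miR-379, miR-411a, and miR-409 were above their 5p arms by 0.38, 0.38, and 0.44, and the 3p arm of miR-369 differed from its 5p arm by -0.37 (-0.74 to -0.01). For miR-30a, the hairpin with the most reads, the 3p arm made up 3.95% in DU and 3.90% in CO, a difference of -0.02 (-0.10 to 0.07).

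Levels of miRNAs known from other cell types are given beside these results, and their part in the results was not tested. In the epithelial list, 8 of 12 rows were compared, with 4 above and 4 below 0. The 4 known rows among them summed to 43385 RPM in DU and 44512 RPM in CO (0.04), and all 8 to 155563 and 66812 RPM (-1.22), since miR-215 and the long miR-194 row were among the latter. In the smooth muscle and mesenchyme list, the known rows summed to 425079 RPM in DU and 534335 RPM in CO, almost all of it miR-143. Of the other members, oar-miR-133 lay on the side of miR-143, and oar-miR-218a and oar-miR-199a-3p lay on the other. oar-miR-133, a muscle miRNA, had 359 and 391 RPM (0.12), oar-miR-218a 289 and 177 RPM (-0.71), and oar-miR-199a-3p, a fibroblast miRNA whose gene lies within DNM3, 5027 and 2452 RPM. oar-miR-199a-3p had the lowest log2 ratio of the known miRNAs, -1.04 (-1.06 to -1.02). On the same list, miR-145 and miR-1 had no linked row, and the row of miR-214 had 456 reads in CE and 0 in DU and CO. The row identical to miR-206, of the miR-1 family but not on the list, had 728 reads in DU and 298 in CO (-1.47).

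Only 3 rows stood for the leukocyte miRNAs, and all 3 were lower in the CO library. Rows of similar depth usually lay on this side. The 46 rows with a smaller count of 1000 to below 10000 reads had a median of -0.47. oar-miR-150, a lymphocyte miRNA, had 440 RPM in DU, 233 RPM in CO, and 190 RPM in CE (-0.92). The rows of miR-146a and miR-155, both induced in activated immune cells, had 1255 and 924 RPM in DU and 388 and 590 RPM in CO (-1.69 and -0.65). The red cell miRNA miR-486 had 60.9 RPM in DU and 38.2 RPM in CO, while the row of miR-451, the most abundant red cell miRNA, was listed at 0 reads in all libraries. A row of miR-144, from the same transcript as miR-451, had 27 reads in DU and 0 in CO. The neuronal miRNAs miR-124a and miR-138 had 37 and 28 reads in DU and 36 and 14 in CO. Rows of miR-122 and miR-217, known from the liver and the exocrine pancreas, had 2170 and 160 reads in DU and 372 and 26 in CO, with log2 ratios of -2.73 and -2.80. In CE, the row of miR-122 had 0 reads, another row nested with the same miRNA 281 reads, and that of miR-217 67 reads. A row of miR-216a, the neighbour of miR-217, had 30 reads in DU, 14 in CE, and 0 in CO. No row was linked to the endothelial miR-126.

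**Figure D5:**
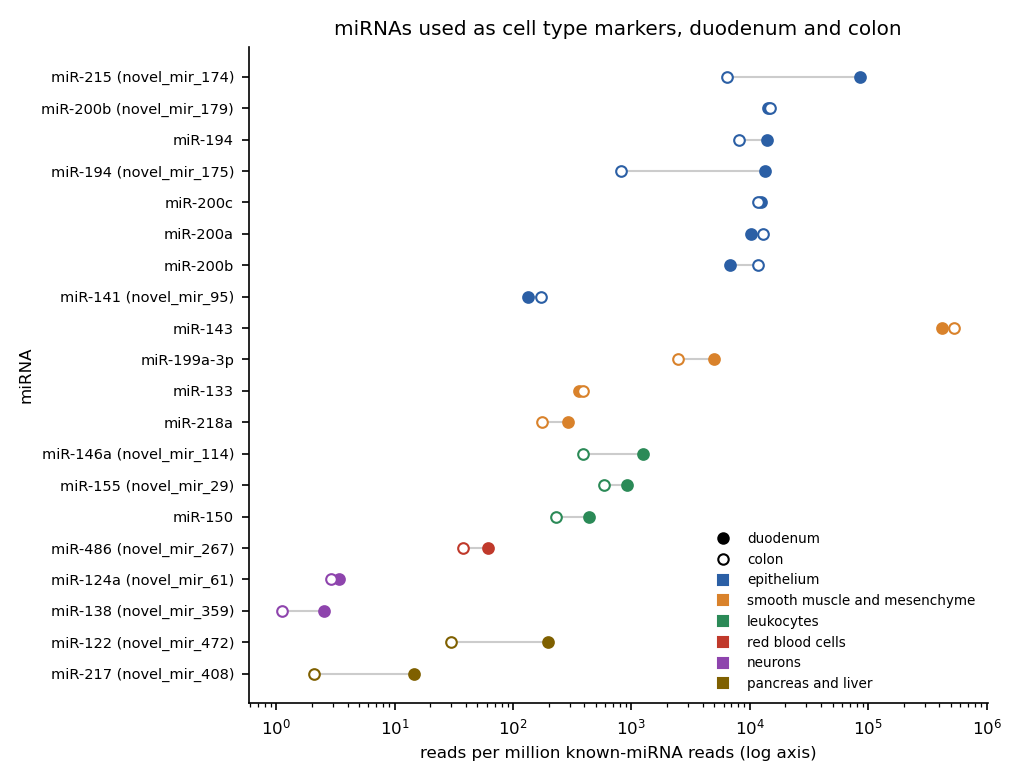
Level of miRNAs used as cell type markers (y axis) in the duodenum (filled) and the colon (open), in RPM on a log axis. miR-143 exceeds every epithelial row in both libraries, and the leukocyte, liver, and pancreas rows have their open circle to the left.

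Among the 183 predicted rows, 52 had the sequence of a named miRNA, 54 were nested with one, 4 were nested with a known row, and 73 were linked to none. Beside the HOX-related novel_mir_153 and novel_mir_91, the predicted rows highest in the CO library were novel_mir_24, with 22.5 RPM in DU, 114 RPM in CO, and 153 RPM in CE (2.34), novel_mir_203 with 32 and 101 reads (1.48), and novel_mir_297 with 13 and 38 reads (1.37, with a wide interval of 0.43 to 2.40). novel_mir_377 had the lowest log2 ratio of all rows, with 337 RPM in DU, 16.5 RPM in CO, and 78.6 RPM in CE (-4.35, interval -4.56 to -4.14). It was linked to no named miRNA. Of the 38 rows at least 2-fold higher in DU, 23 had fewer than 100 reads in a library, and so had 8 of the 16 rows at least 2-fold higher in CO. The median GC content was 40.9% in the former and 50% in the latter, with 45% in all other rows.

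A set of the predicted rows shared a stretch of sequence, as found after their values were seen. The stretch AAAAGTTC or its reverse complement GAACTTTT, the most frequent of its length on either strand, was in 27 of the 183 predicted rows (14.8%) and in 0 of the 94 known miRNAs. These 27 rows had 12041 reads in DU and 7501 in CO, and their log2 ratios had a median of -0.87, against -0.32 in the 156 rows without it. Of the 27 rows, 24 lay below 0, against 126 of all 183 predicted rows. At least 2-fold higher in DU were 8 of the 27 rows and 28 of the 156 rows without the stretch. Rows of nested or overlapping sequence were each counted singly, so the 27 rows are not 27 separate miRNAs. Seeds were shared more generally. The 277 rows had 210 seeds, of which 35 were shared by at least 2 rows. In 17 of these seed groups every row lay below 0, in 4 every row lay above 0, and in 14 the rows lay on both sides. Of all 277 rows, 172 lay below 0, and 136 to 142 did so under the other scalings. The seed groups were not counted again under those.

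The minimum of 10 reads fell between miRNAs with close values. Just inside it were oar-miR-1185-3p with 11 reads in DU and 25 in CO, and oar-miR-1197-3p with 12 and 26 reads. Just outside were oar-miR-3957-5p with 9 and 11 reads and oar-miR-299-5p with 8 and 15 reads. The log2 ratios of both inner miRNAs were 1.00 and 0.93, with intervals of -0.07 to 2.17 and -0.10 to 2.06. Rows with fewer than 100 reads in a library, 108 in all, had intervals with a median width of 1.53 on the log2 scale, and the 55 rows with at least 10000 reads in both libraries had 0.04.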

How the data were processed

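Small RNA was sequenced in 1 library each of duodenum, cecum, and colon, prepared from total RNA with the Illumina TruSeq small RNA kit. The authors removed adapters and reads under 18 nt, mapped clean reads to Oar_v4.0 with SOAP, took BLAST matches to miRBase entries as known miRNAs, and ran miReap to predict the rest (the submitters' processing notes name Bowtie). They deposited raw read counts per mature sequence, without normalization. Here, counts were scaled to reads per 1000000 reads of known rows. Log2 ratios of colon to duodenum were computed for rows with at least 10 reads in both libraries, with exact binomial 95% intervals. Shares have Wilson intervals, and differences between log2 ratios have normal intervals on the log scale. The script was tested on simulated counts. Families, clusters, and marker lists were taken from textbook membership, and predicted rows were linked by identical or nested sequence to the conserved miRNAs listed in the study. The rows compared and all lists were chosen with earlier results of these data known. Rows named are list members, the 10 known miRNAs with the largest ratio in each direction, the 5 most abundant rows of each library, and the 5 predicted rows with the largest ratio in each direction. Rows of the RefSeq annotation (ARS-UI_Ramb_v3.0, not the build of the reads) gave neighbours and host genes only. Alternatives were the scaling (without oar-miR-143, all rows, DESeq2 1.42.0 size factors, edgeR 4.0.16 TMM factors), the minimum of reads, intervals past 2-fold, nested rows merged, and families with linked rows. Tools were Python 3.11.15, pandas 2.3.3, scipy 1.17.1, and R 4.3.3. No count model was fitted, because the spread between animals cannot be estimated from 1 pool a segment.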

Additional observations from a re-analysis of the deposited data

Results flagged for a closer look

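The comparison did not use 162 rows that had at least 10 reads in only 1 of both libraries, of which 8 were known miRNAs and 154 predicted ones. They held 6.98% of all reads in the duodenum library and 0.228% in the colon library. Most of the duodenum reads came from the row nested with miR-192, which had 967314 reads in the duodenum, 490567 in the cecum, and 0 in the colon. A row nested with miR-222 had 6655 reads in the colon and 0 in both other libraries. Of the 162 rows, 68 shared a run of at least 18 bases with another row that had at least 10 reads in the library where they had fewer. These partners were not all length variants, since that of the miR-192 row was the miR-215 row. miR-429 was a case of length variants. It had 3959 reads in the duodenum in 1 row and 4268 reads in the colon in a row 1 base shorter. With both rows added, its log2 ratio was -0.07. The same held for 3 examples chosen after their values were seen. With nested rows added, miR-140 had 13129 reads in the duodenum and 8924 in the colon (-0.74), miR-361-3p had 9871 and 4801 (-1.22), and miR-31 had 981 and 10 (-6.80). A 0 in a predicted row was therefore not read as absence.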

How the results depend on the processing

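No paired analysis was possible because each segment had 1 library. The number of rows at least 2-fold higher in the colon, 16, became 30 without oar-miR-143 in the scaling, 26 with all rows, 29 with DESeq2 size factors, and 26 with edgeR TMM factors, and the number higher in the duodenum, 38, became 24 under each of these. With at least 100 reads in both libraries (169 rows) the numbers were 8 and 15. With at least 10 reads in either library and 1 read added (439 rows) they were 70 and 124, and with the whole 95% interval past 2-fold 7 and 21. Nested rows merged gave 19 and 41. Leaving out the rows with the shared stretch, an alternative chosen after seeing the data, gave 16 and 30. Of the known miRNAs, 3 had the whole interval past 2-fold in the colon and 2 in the duodenum. Those 2, oar-let-7i and oar-miR-199a-3p, were not past 2-fold under any of the other scalings. For families, clusters, and named miRNAs, 278 values were recomputed. No value past 2-fold could change its sign by scaling, since the other scalings added only 0.25 to 0.31 to each log2 ratio. miR-10, the only family past 2-fold by its known members, had no linked rows to add. The miR-194 family went from -0.79 to -1.62, past 2-fold, with its linked row added. Among the families and clusters below 2-fold, 22 of the recomputed values changed sign. Under the other scalings, the miR-374 family went from -0.06 to between 0.19 and 0.25. With linked rows added, the miR-221 and miR-222 family went from -0.95 to 0.78 through the row of miR-222, and miR-23 from 0.01 to -0.00342. Adding only linked rows with 10 reads in both libraries was also chosen after seeing the data. The miR-221 and miR-222 family then had no row to add, so that its -0.95 was the main value unchanged.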
